A study of Mus musculus with 2 samples.

Results

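The tubulins, the kinesin and dynein motors and their close regulators were compared between control and plaster-cast gastrocnemius, a calf muscle. Members were all genes with a non-control probe whose array name begins as a numbered alpha-, beta- or gamma-tubulin, a kinesin, a kinesin light chain, a dynein chain or light chain, a dynactin subunit, an EB protein (Mapre) or a stathmin (Stmn). This gave 129 probes of 94 genes, out of 25168 named genes on the array. RNA came from male C57BL/6 mice aged 9 weeks, either controls or mice whose hindlimb was held in a plaster cast for 11 days. The labels give 6 mice per group and state that samples were pooled, so each group is 1 array of pooled RNA. No difference below therefore has a replicate check, a standard error or a test, and differences between mice are not measured at all.

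Microtubules are hollow filaments of alpha- and beta-tubulin dimers, and gamma-tubulin seeds them. Kinesins walk along them mostly towards the plus end, dynein with its cofactor dynactin walks towards the minus end, EB proteins ride on growing plus ends, and stathmins bind free tubulin dimers. In a muscle fibre microtubules form a lattice below the membrane and around the nuclei, and they serve in placing nuclei, mitochondria and Golgi elements.

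Levels are given as scaled signal, which is 100 times a probe's processed signal divided by the 75th percentile of its array. A difference is log2 of cast over control on that scale. A gene was counted as measured when a probe was well above background on both arrays, and the brightest such probe stood for it. That held for 70 of the 94 members, or 74.5%, against 15033 of all 25168 genes, or 59.7%. A further 3 members were above background on the control array only and 21 on neither.

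Most members differed little between the arrays, and a few stood apart in either direction. Of the 70 measured members, 7 had at least 1.5-fold more signal in cast, where 7.02% of all measured genes were that far up. A further 5 members were at least 1.5-fold lower, where 8.23% of all genes were that far down. The members' shares were 10% and 7.14%, close to those backgrounds, so the number of members past 1.5-fold is no result about the family. Past 2-fold were 1 member upwards, the beta-tubulin Tubb6, and 1 downwards, the stathmin Stmn4, against 2.23% and 2.1% of all genes. The median member difference was 0.08, beside -0.03 over all genes, and 43 of 70 members (61.4%) lay above 0, beside 47.0% of all genes. The quartiles were -0.18 and 0.24 for members and -0.27 and 0.23 for all genes. In whole muscle, fewer cells of a type and less RNA per cell cannot be told apart.

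**Figure D1:**
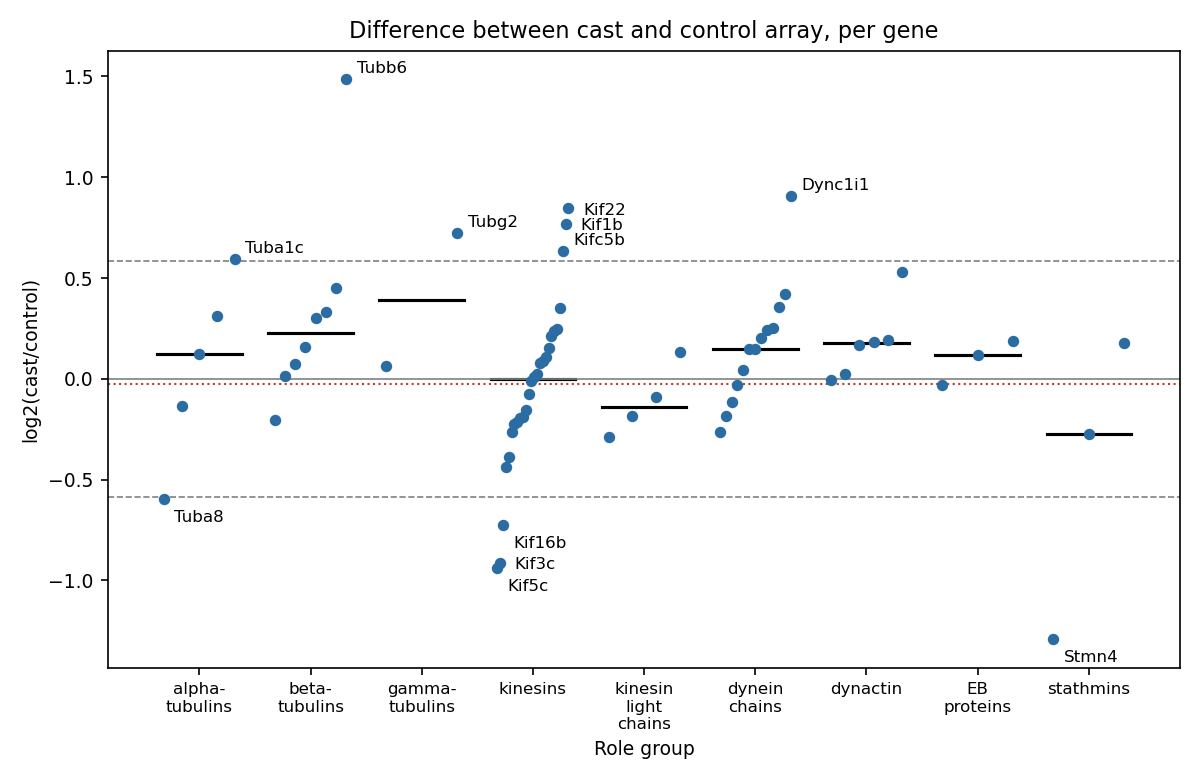
Log2 of cast over control for each measured gene (points) by role group, with each group's median as a black bar, the median of all genes as a dotted line and 1.5-fold as dashed lines; there is 1 array of pooled RNA per group. Tubb6 at 1.49 and Stmn4 at -1.29 lie at the ends, and 58 of the 70 genes lie inside 1.5-fold.

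The scale sets the sign of small differences. Without scaling between arrays all values rise by 0.34, and with scaling on the spike-in controls by 0.35. A difference given here between about -0.35 and 0 is above 0 under those choices, and this applies to all such members, other genes and list medians named below. The spread between repeated spots of 1 probe gave a technical floor. The median SD of the log2 ratio between spots was 0.15 in the dimmest of 4 equal brightness classes of probes and 0.10, 0.08 and 0.08 in the brighter ones. It covers neither mice nor hybridisations.

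Of the alpha-tubulins, 5 of 7 genes were measured, 1 past 1.5-fold in each direction. Tuba1c, a widely expressed alpha-tubulin, had a scaled signal of 273 in control and 413 in cast, a difference of 0.59. Its other probe gave 0.61, though both probes share 48 of 60 bases and are not independent. Tuba8, an alpha-tubulin known from striated muscle and testis, had 7362 in control and 4867 in cast, a difference of -0.60. Both genes thus lay just past the 1.5-fold line (0.58), on opposite sides. Tuba1c was at 0.58, just inside it, with cyclic loess scaling, and Tuba8 shrank to -0.25 with scaling on the spike-in controls. Tuba8 was also inside 1.5-fold without scaling, with median scaling and with normexp correction, and past it under 7 of 11 alternatives. Stretches of the probes show which letters each value was read from. AATAAA, the polyadenylation signal, is in capitals where a stretch holds it.
Tuba1c probe: tcctaaactgtcAATAAAggtgtttccgtt
Tuba8 probe: ttcgtttgaagaagagaatgagggggagga
The full Tuba1c probe lies at chr15:98868477-98868536 and the Tuba8 probe at chr6:121176046-121176105, both on the plus strand of mm9 per the array annotation. The mm9 gene models were not used here, so exon or UTR was not assigned.

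The other measured alpha-tubulins lay inside 1.5-fold. Tuba4a, whose product is made without a terminal tyrosine, had 13948 in control and 15206 in cast, a difference of 0.12. Tuba1b, a ubiquitous alpha-tubulin, had 2281 and 2827, a difference of 0.31, but its other probe read 918 and 888, or -0.05. Tuba1a, a main alpha-tubulin of developing neurons, was at -0.14. The testis alpha-tubulins Tuba3a and Tuba3b were on neither array above background.

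The letters before the start sites of Tuba1c and Tuba8 are described next, and a link to their values was not tested. The RefSeq promoters (GRCm38.p6, 250 bases before to 30 after the start) are printed with motif matches in capitals: CCAAT, read ATTGG on the other strand, and the E-box CANNTG.
Tuba1c promoter: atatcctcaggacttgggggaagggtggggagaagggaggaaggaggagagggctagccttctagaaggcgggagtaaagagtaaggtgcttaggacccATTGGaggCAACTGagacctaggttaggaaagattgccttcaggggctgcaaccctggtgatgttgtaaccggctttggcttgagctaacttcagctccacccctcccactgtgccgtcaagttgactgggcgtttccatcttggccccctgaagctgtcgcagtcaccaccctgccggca
Tuba8 promoter: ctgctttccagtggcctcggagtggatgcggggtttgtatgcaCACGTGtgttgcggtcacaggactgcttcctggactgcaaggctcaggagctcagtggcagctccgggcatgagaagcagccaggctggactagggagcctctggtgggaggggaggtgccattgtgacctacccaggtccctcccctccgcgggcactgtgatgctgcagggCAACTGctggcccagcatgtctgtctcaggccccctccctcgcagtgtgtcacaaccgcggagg
The Tuba1c window is chr15:99029641-99029920 and the Tuba8 window chr6:121210484-121210763, both on the plus strand. The Tuba1c window holds 1 CCAAT and 1 E-box, the Tuba8 window no CCAAT and 2 E-boxes, searched on both strands. RefSeq promoters were matched for 66 member genes (74 windows). Of these windows 43.2% hold CCAAT, beside 36.1% of all 32851 windows. The GC box GGGCGG was in 60.8% of member windows and 34.7% of all, the E-box in 59.5% and 70.1%, and TATAAA in 10.8% and 13.1%. These matches describe letters in a window and are not evidence of binding.

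Tubb6 was the member with the largest difference. This beta-tubulin is known for disturbing microtubule order when raised, and has been studied in dystrophic muscle. Its scaled signal was 479 in control and 1344 in cast, 2.81-fold higher, a difference of 1.49. Among all measured genes 122, or 0.812%, lay further up. It stayed between 1.45 and 1.84 under all 11 alternative processing choices, and it rests on 1 probe.

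The other 7 measured beta-tubulins lay between -0.20 and 0.45, with a median of 0.16. Tubb4b, a widely expressed beta-tubulin, had 5243 in control and 5303 in cast, a difference of 0.02. The probe named for the pseudogene Tubb2c-ps1 had 8127 and 8561, a difference of 0.08. Both probes are annotated to overlapping stretches of the same strand that together span 82 bases. They may therefore not be separate measurements, though both are counted among the beta-tubulins here. Tubb5, the main beta-tubulin of dividing cells, was at 0.30, Tubb2a at 0.16 and Tubb4a, known from brain, at 0.45. Both probes of Tubb2b disagreed, at 0.33 and -0.25. The platelet form Tubb1 and the neuronal form Tubb3 were above background on neither array. Tubulin copies and pseudogenes are near-identical in their coding parts, so single members can carry signal of a relative.

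Both gamma-tubulins were measured and differed in size. Tubg1, the ubiquitous form, had 427 in control and 446 in cast, a difference of 0.06. Tubg2, a form best known from brain, had 66.1 and 109, a difference of 0.72. Tubg2 was at 0.55 with normexp background correction, just inside 1.5-fold. That correction adds 50 to every signal here, which by itself draws the ratios of dim probes towards 0. It also starts from the mean spot signal and its background, and the share of each was not tested. Its probe at chr11:101023040-101023099 (mm9, plus strand) holds the polyadenylation signal.
Tubg2 probe: tggttaagttctAATAAAtaaagcgtgatg

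**Figure D2:**
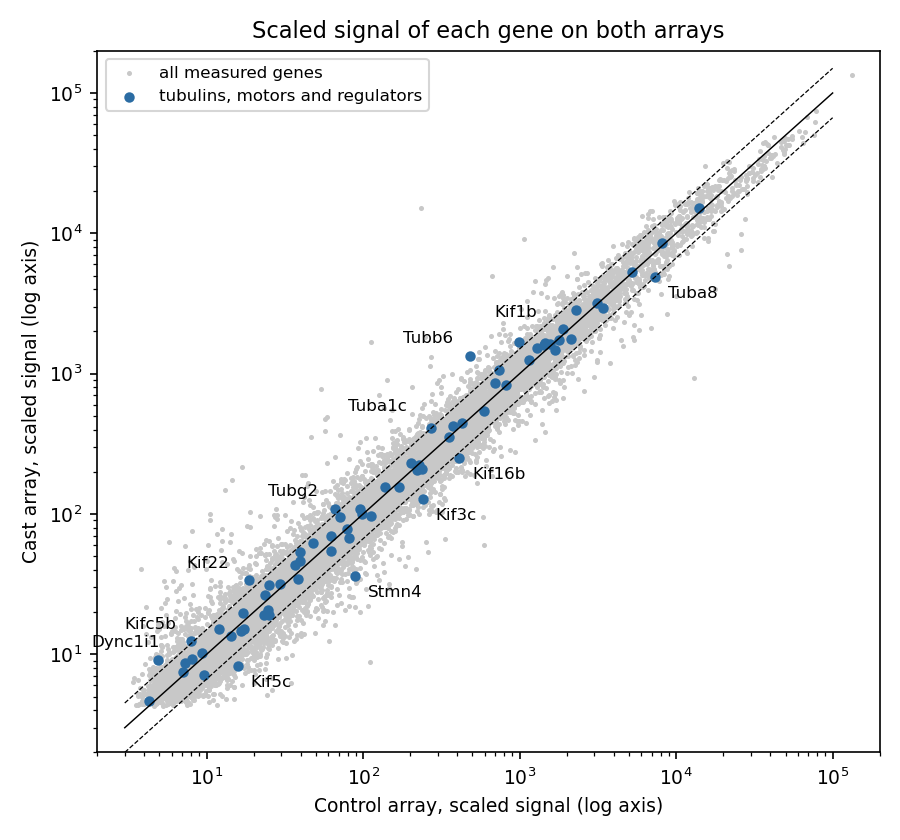
Scaled signal on the control array (x) and the cast array (y), both on log axes, for all measured genes (grey) and the 70 measured members (blue), with equality as a solid and 1.5-fold as dashed lines. Tubb6 and Tuba8 lie off the line at high signal, whereas Dync1i1, Kifc5b and Kif5c lie off it near the lower end.

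The kinesins were the largest group, with 26 of 42 genes measured, and they split evenly. Of these 13 lay above and 13 below 0, 3 were at least 1.5-fold higher and 3 lower, and the median was -0.001. The 20 kinesins inside 1.5-fold lay between -0.44 and 0.35.

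Kif1b, a motor for mitochondria and vesicle precursors, gave opposite readings from its 2 probes. The brighter by mean level read 993 in control and 1692 in cast, a difference of 0.77. The other read 1441 and 1158, a difference of -0.32. The gap of 1.08 between the probes was the widest of any member. The array annotation assigns them to different RefSeq transcripts. Kif1b is known to make a short form, linked to mitochondria, and a long form with another tail, linked to synaptic vesicle precursors. The value for the gene depends on which probe stands for it: it was -0.35 with quantile scaling, where the other probe became the brighter, and 0.23 as the mean of both. The lower probe falls in the range whose sign depends on the scaling.

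Kif3c, Kif16b and Kif5c were the kinesins past 1.5-fold downwards. Kif3c, a partner of Kif3a in a heterodimeric motor best known from neurons, had 241 in control and 128 in cast, a difference of -0.91. Its partner Kif3a was at 0.02, with -0.16 from its other probe. Kif16b, which moves early endosomes, had 412 and 249, a difference of -0.73. Kif5c, a neuronal form of conventional kinesin, had 15.9 and 8.27, a difference of -0.94. Of the other forms of conventional kinesin Kif5b was at 0.24 and Kif5a at 0.35, while a second Kif5a probe, above background in control only, read 6.04 and 4.62. Kif3c was at -0.56 and Kif16b at -0.38 with scaling on the spike-in controls, and Kif5c, which is dim, at -0.46 with normexp correction. The Kif3c probe lies at chr12:3406435-3406494, the Kif5c probe at chr2:49630228-49630287 (both plus strand) and the Kif16b probe at chr2:142444116-142444175 (minus strand) of mm9.
Kif3c probe: aacacagttgacAATAAAggaatgagtatc
Kif5c probe: aaatactcaaaactggacAATAAAactgag
Kif16b probe: ccctataaggaggagactaatattcaatta

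Kif22 and Kifc5b, both counted among kinesins of cell division, were higher on the cast array. Kif22, which binds chromosome arms, had 18.7 in control and 33.6 in cast, a difference of 0.85. Kifc5b, whose probe carries the older name Kifc1 of a minus-end spindle motor, had 7.96 and 12.4, a difference of 0.63. Its other probe was above background on neither array. Both genes are dim: with normexp correction Kif22 was at 0.50 and Kifc5b at 0.14. The 50 that it adds draws such dim ratios towards 0 by itself. How much of this shift it makes for Kif22 or Kifc5b was not tested. Most of their class was not seen. Among 12 kinesins of division grouped after the values were seen, 3 were measured on both arrays, 1 on the control array only and 8 on neither, among them the spindle motors Kif11, Kif15, Kif18a and Kif23. The third measured one, Kif14, was at 0.09.

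Other well-detected kinesins differed little. Kif1c, linked to vesicle transport and Golgi traffic, had 3418 in control and 2927 in cast, a difference of -0.22, and its other probes read -0.38 and 0.14. Kif13a, a motor of endosomal traffic, had 817 and 824, a difference of 0.01. Kif20a, Kif26b and Kif7 were above background on the control array only. Kif26b was at least 1.44-fold lower on the cast array, reckoned against the lowest signal there that was well above background, while Kif20a read 4.51 and 4.36 and Kif7 6.07 and 4.67.

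All 4 kinesin light chains, which couple conventional kinesin to cargo, were measured, and none passed 1.5-fold. Klc2 had 1686 in control and 1483 in cast, a difference of -0.19. Klc4 had 220 and 207, or -0.09. Klc1 had 81.8 and 67.1, or -0.29, but its other probe read 0.06. Klc3 was at 0.14. The group median of -0.14 was 0.20 without scaling, so its direction is not fixed.

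The dynein chains were mostly slightly above 0, 9 of 13 measured, with a median of 0.15. Dync1h1, the motor heavy chain, was at 0.24, and the light intermediate chains Dync1li1 and Dync1li2, which bind cargo adaptors, were at 0.42 and 0.36. Light chains, which bind cargo at the base of the motor, went both ways. Dynll2 had 2122 in control and 1766 in cast, a difference of -0.26, Dynlrb1 had 1891 and 2093, or 0.15, and Dynlt1c had 1781 and 1741, or -0.03. Only the intermediate chain Dync1i1, known from neurons, passed 1.5-fold, at 4.90 and 9.18, a difference of 0.90. That pair lies close to the lowest signal well above background (3.40 in control and 4.23 in cast), its other probe was above background on neither array, and normexp correction left 0.09. The widely expressed intermediate chain Dync1i2 was at 0.05. Without Dync1i1 the dynein chains lay between -0.26 and 0.42.

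All 6 dynactin subunits were measured and none passed 1.5-fold, and 5 lay above 0. Dctn2, or dynamitin, of the shoulder that joins the dynein-binding arm to the filament, came nearest, with 740 in control and 1068 in cast, a difference of 0.53. Dctn1, the arm that binds dynein and microtubules, had 3141 and 3192, a difference of 0.02. Dctn3, another shoulder subunit, had 1454 and 1652, or 0.18, and Dctn6, at the pointed end of the filament, had 1425 and 1603, or 0.17. The pointed-end subunits Dctn4 and Dctn5 were at -0.004 and 0.19. Actr1a, the actin-related protein that builds the dynactin filament, is no member and is named after its value was seen: it had 1267 and 2188, a difference of 0.79.

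The 3 EB proteins differed little. Mapre3, the form known for muscle and brain, had 1153 in control and 1253 in cast, a difference of 0.12. Mapre1, the widely expressed form, had 137 and 156, or 0.19. Mapre2 had 229 and 224, or -0.03, while its other probe read 0.29.

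Stmn4 was the member with the largest difference downwards. This stathmin, described mainly in the nervous system, had 88.7 in control and 36.2 in cast, 2.45-fold lower, a difference of -1.29. The other probe had 86.0 and 33.1, a difference of -1.38, but the probes start 16 bases apart and share 44 of 60 bases, so they are nearly 1 measurement. Among all measured genes 138, or 0.918%, lay further down. Stmn4 stayed between -1.33 and -0.94 under all 10 alternatives that gave a value. The probes lie at chr14:66980426-66980485 and chr14:66980442-66980501 (mm9, plus strand).
Stmn4 brighter probe: gcgggtgggataaggtctgtgtgcgtctgt
Stmn4 other probe: ctgtgtgcgtctgttcattgtcatcttttg
The other stathmins did not share this. Stmn1, the ubiquitous form, had 95.8 and 109, a difference of 0.18, with 0.15 from its other probe. Stmn2, a neuronal form, had 23.2 and 19.2, or -0.27, and Stmn3 was above background on neither array.

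**Figure D3:**
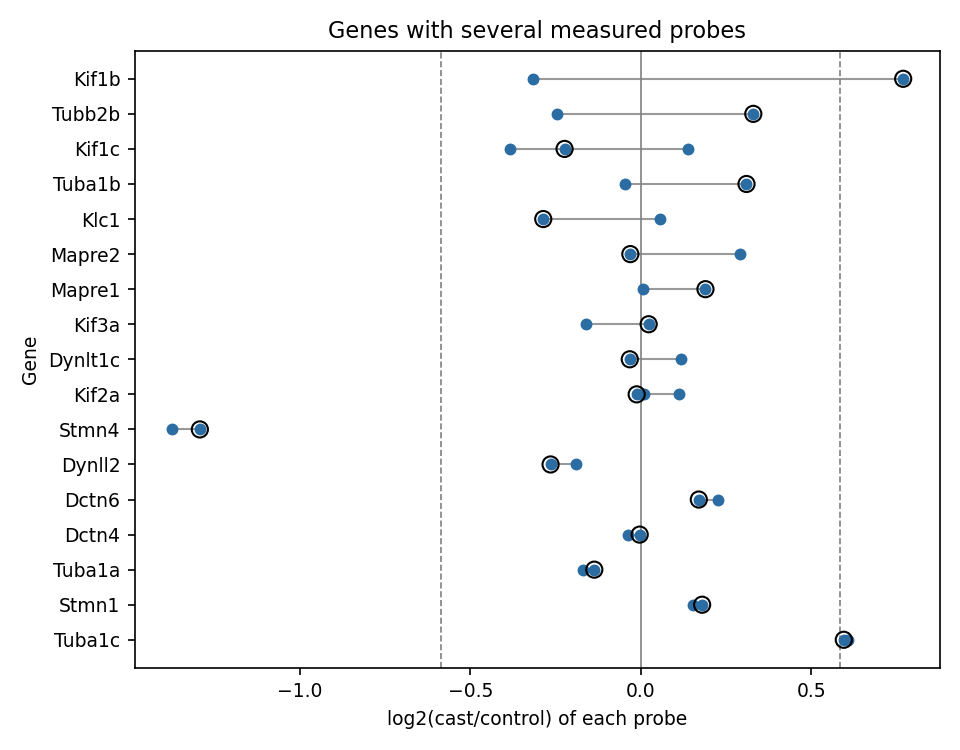
Log2 of cast over control for each probe (points) of the 17 members with several measured probes, with the probe that stands for the gene circled and 1.5-fold as dashed lines. The 2 probes of Kif1b lie 1.08 apart on both sides of 0, while those of Stmn4 and Tuba1c lie together.

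Probes of 1 gene often disagreed in sign. This was so for 9 of the 17 members with several measured probes (52.9%), beside 27.2% of 3489 such genes on the array. The size of the disagreement was similar, with a median range of 0.15 for members and 0.18 for all genes. Kif1b, Tubb2b and Kif1c differed by more than 0.5 between probes. Of the 129 member probes 20.2% held AATAAA, beside 12.6% of all probes.

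Lists of tubulin folding and modification, the gamma-tubulin ring and centrosome, microtubule binding and motor adaptors were read together. More of their genes lay past 1.5-fold upwards than downwards. Of 103 measured genes in 5 lists 13 (12.6%) were at least 1.5-fold higher and 2 (1.94%) lower, beside 7.02% and 8.23% of all genes. Without scaling or on spike-ins these were 39 and 0, where most calls of all genes also point upwards. The lists were chosen with earlier results of these data known, so their shares are described and were not tested. Of the 21 tubulin folding factors all were measured, 3 were at least 1.5-fold higher and 0 lower, and the median was 0.10. The largest were the tubulin cofactors Tbcd, with 186 in control and 324 in cast (0.80), and Tbcb, with 303 and 470 (0.63). Both bind alpha- or beta-tubulin on its way to the dimer. Of 15 genes of the gamma-tubulin ring and centrosome, 14 were measured, 1 was higher and 0 lower, with a median of 0.13. Akap9, a Golgi and centrosome scaffold, had 381 and 580 (0.61), and Tubgcp6, a ring subunit, 30.4 and 39.4 (0.38).

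Tubulin-modifying enzymes included 1 gene past 1.5-fold downwards. Of 16, 14 were measured, 2 were higher and 1 lower, with a median of 0.23. Ttl, the ligase that puts the terminal tyrosine back on alpha-tubulin, had 99.7 in control and 62.2 in cast, a difference of -0.68, and was at -0.33 with scaling on the spike-in controls. Ttll11, a polyglutamylase, had 18.6 and 36.2, a difference of 0.96, and was at 0.51 with normexp correction.

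Of 30 microtubule-binding and severing genes on the array 26 were measured, 2 were at least 1.5-fold higher and 0 lower, with a median of 0.08. Map1lc3a, a light chain found on microtubules and better known as an autophagy protein, had 1469 in control and 4652 in cast, a difference of 1.66. Map1b, a binding protein of growing neurites, had 8.36 and 17.4, a difference of 1.06, and was at 0.38 with normexp correction. Among 29 motor adaptors and regulators 28 were measured, 5 were higher and 1 lower, and the median was 0.05. Syne1, a nuclear envelope protein that links nuclei to the cytoskeleton, had 107 and 248, a difference of 1.21. Hook2, an adaptor of dynein, had 165 and 315, a difference of 0.93. Shares past 1.5-fold in these 5 lists ran from 7.14% to 17.9% upwards and from 0% to 7.14% downwards.

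**Figure D4:**
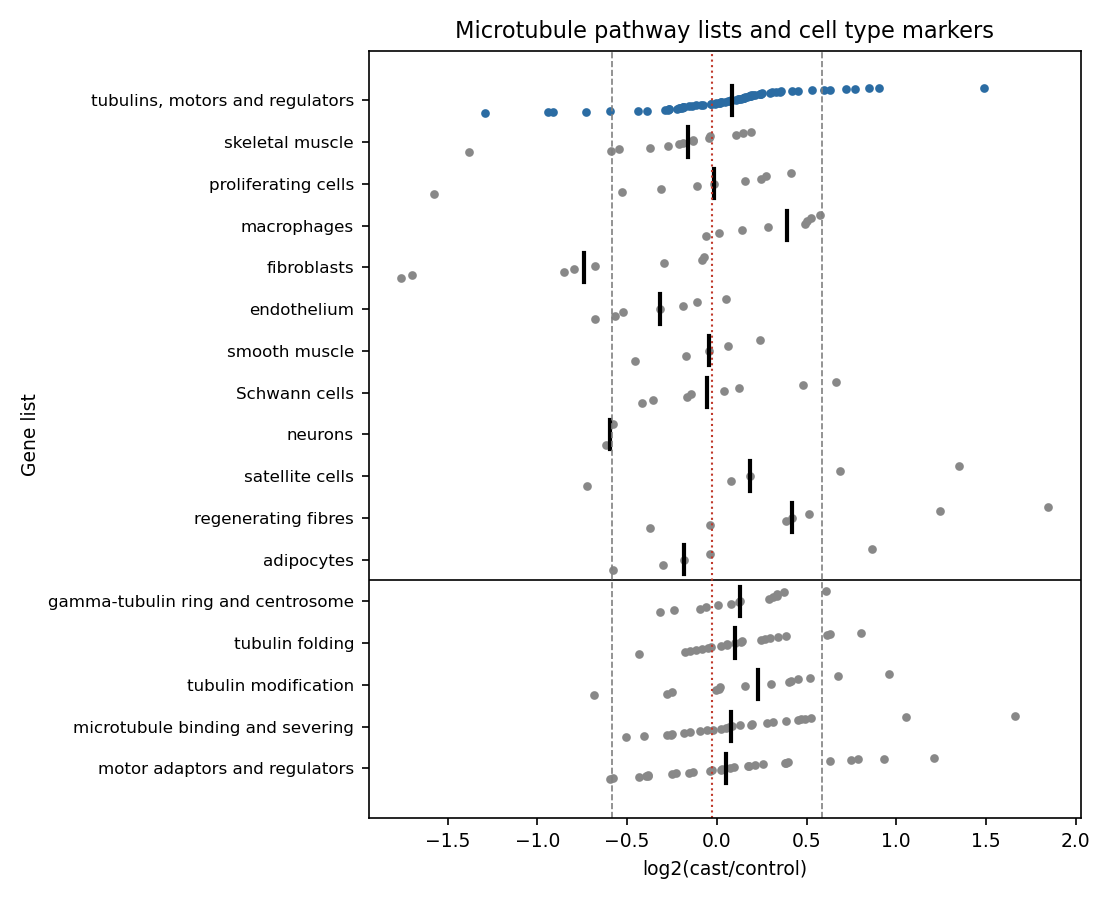
Log2 of cast over control for each measured gene (points) of the members, of the cell type marker lists and, below the line, of the 5 microtubule lists; black bars are medians, the dotted line is the median of all genes and dashed lines mark 1.5-fold. The member and microtubule lists have medians from 0.05 to 0.23, while all 8 fibroblast markers lie below 0 on this scale.

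Marker genes place these values in their tissue. All 14 skeletal muscle markers were well above background on both arrays, with a median difference of -0.16 and a summed scaled signal of 561811 in control and 471054 in cast. Members described above as neuron or brain forms went both ways. Stmn4, Kif5c, Kif3c, Stmn2 (-0.27) and Tuba1a (-0.14) were lower on the cast array, whereas Dync1i1, Tubg2, Tubb4a and Mapre3 (0.12) were higher. Stmn2 and Tuba1a fall in the range whose sign depends on the scaling. Tubb4a and Mapre3 lay inside 1.5-fold, and Dync1i1 was close to the lowest signal well above background. Of 10 neuron markers 7 were above background on neither array, including the neurofilaments Nefl and Nefm, and 1 on the control array only. The measured ones, Snap25 and Syp, were at -0.61 and -0.58, and the summed signal was 1176 in control and 775 in cast. The 8 Schwann cell markers, which stand for nerve, summed to 1033 and 1025, with a median of -0.05. Of 18 markers of proliferating cells 9 were measured, 6 were on neither array, and they summed to 269 in control and 161 in cast. Aurka, a mitotic kinase, held most of that difference with 176 and 59.1, and the other 17 markers summed to 92.4 and 102. The measured median was -0.01, and it was 0.07 over the 12 markers detected on at least 1 array, of which 2 were at least 1.5-fold higher and 1 lower. Mki67 was at 0.27, Plk1 and Bub1b were above background in cast only, Cdk1 in control only, and Top2a, Ccnb1, Aurkb, Bub1, Cenpf and Ndc80 in neither. All 8 fibroblast markers lay below 0, with a median of -0.74 and sums of 23078 and 13684, of which 5 were at least 1.5-fold lower. Without scaling or on spike-ins 3 of the 8 lay above 0 and 2 were at least 1.5-fold lower. Of 8 measured macrophage markers 7 lay above 0, with a median of 0.39 and sums of 791 and 899. The median was 0.42 for markers of regenerating fibres. They summed to 64332 and 51127, mostly from Myh8, and without Myh8 to 994 and 2244. Most of that remainder was Myl4, with 802 in control and 1897 in cast, and Tnnt2 had 43.8 and 158. Myh3 at 0.39, Myog at 0.42, Chrng at 0.51 and Ncam1 at -0.04 lay inside 1.5-fold, and Mymk was above background in cast only. For satellite cells the median was 0.18 and the sums were 2653 and 4484. That rise came from Itga7, with 2216 in control and 3569 in cast, and Cdh15, with 317 and 807. Pax7 was at 0.08, Myod1 at 0.18 and Vcam1 at -0.72, and Calcr was above background in control only. Markers of endothelium, smooth muscle and adipocytes had medians of -0.32, -0.05 and -0.18. The part of these cell types in the members' values was not tested.

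**Figure D5:**
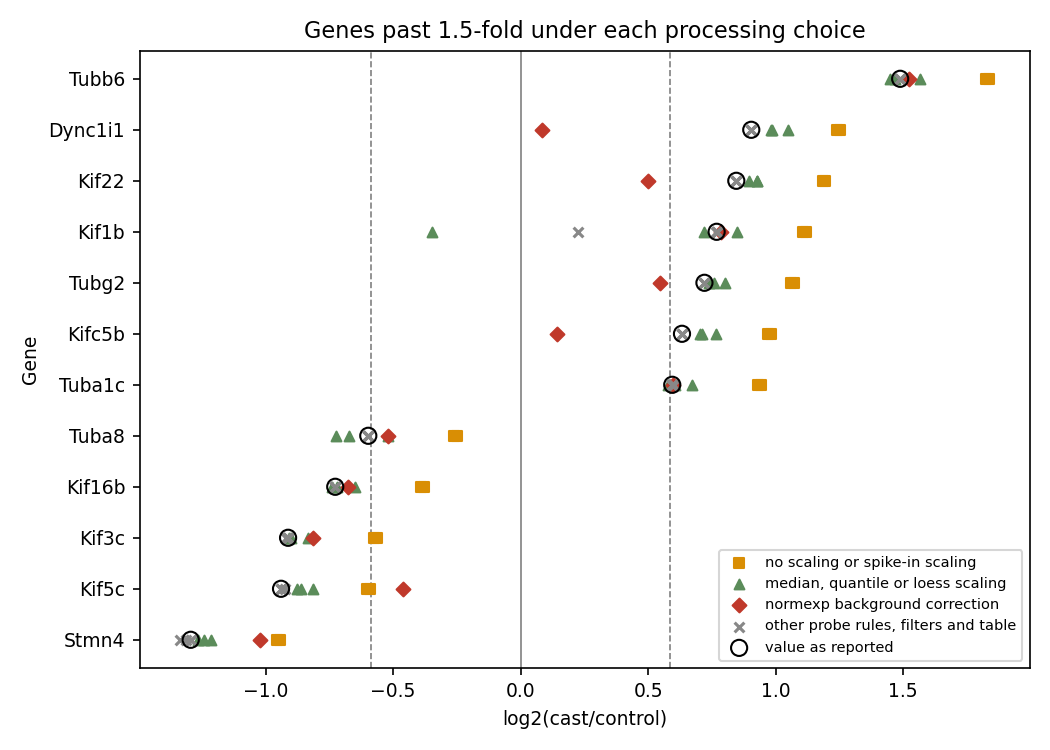
Log2 of cast over control for the 12 members past 1.5-fold (rows) as reported (circles) and under each alternative processing choice (symbols), with 1.5-fold as dashed lines. Tubb6 and Stmn4 stay outside 1.5-fold throughout, Kif1b lies on both sides of 0, and Dync1i1 and Kifc5b come near 0 with normexp correction.

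The 12 members past 1.5-fold held to different degrees. Tubb6 and Stmn4 were past 1.5-fold under every alternative that gave a value, and the other 10 were inside it under at least 1. For Dync1i1, Kif22, Kif5c, Kifc5b and Tubg2 that was normexp only. The normexp offset draws dim ratios towards 0, but normexp also starts from another signal, and the share of each was not tested. Tuba8 was past 1.5-fold under 7 of 11 alternatives, the fewest of the 12 members. Direction was kept by 11 of the 12 under all alternatives run, the exception being Kif1b with quantile scaling.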

How the data were processed

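Total RNA of gastrocnemius was purified on columns and Cy3-labelled cRNA was hybridised to 1-colour Agilent whole mouse genome arrays, per the labels' protocols. The submitters' processing notes name Agilent Feature Extraction 9.5 as the image software. The deposited processed intensity is background-subtracted and detrended within each array, and not normalized between arrays, per the file headers. Control and cast shared 1 slide and 1 scan time, so neither differs between them. The deposited series table, also a linear intensity, is 100 times that signal over its 75th percentile by the median ratio of its values (1 on each array), with 54.9% of values exactly whole numbers, so rounding moves dim values. Its column medians were 9.00 for control and 8.70 for cast. It served as an alternative. With no gene counts, precision is limited by the number of arrays, 1 per group.

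Log2 processed signal minus the 75th percentile of the array over 39418 non-control probes was computed in Python 3.11.15 (numpy 2.4.6, pandas 2.3.3), and the percentile was 385 for control and 486 for cast. Replicate spots were averaged, and spots with a non-uniformity or population outlier flag were left out (2 member spots). A total of 23896 probes (60.6%) were well above background on the control and 22373 (56.8%) on the cast array. No member spot was saturated. Array names were updated by RefSeq accession (GRCm38.p6 table; 119 of 129 member probes matched, and 4 changed symbol). Cyclic loess and normexp (offset 50) used limma 3.58.1 in R 4.3.3 with no fit. Normexp was applied to the mean spot signal and its median background, and not to the processed signal. The 75th percentile scaling and the brightest-probe gene value were tested on a cast array simulated from the control array. Differences in detection and the alternative settings were not part of that simulation.

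Members and lists were chosen with earlier results of these data known. Members described one by one were those past 1.5-fold, those bound by at least 1.5-fold on 1 array, and the 3 brightest per role; the rest are given in ranges or named for their role after their values were seen. From each microtubule list the 2 genes with the largest difference were named. Alternatives covered scaling (none, median, quantile, cyclic loess, spike-in), normexp, the mean of probes, detection filters and the deposited table. The sequences of the Kif1b probes are not reported here.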

Additional observations from a re-analysis of the deposited data

How the results depend on the processing

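The members' median difference of 0.08 was 0.42 without scaling and 0.43 with scaling on the spike-in controls, where the median of all genes moved by 0.34 and 0.35. Counts past 1.5-fold, 7 higher and 5 lower, became 17 and 2 without scaling and 19 and 2 on spike-ins. Higher calls were then 89.5% and 90.5% of members called, beside 58.3% as reported, and 89.9% and 90.5% of all genes called, beside 46.0%. With median scaling they were 66.7% and 60%. The counts were 4 higher and 3 lower with normexp, 3 and 3 among brighter genes, and 9 and 11 of 94 members with no filter on dim probes. Under the other alternatives run they were 6 to 8 higher and 4 to 6 lower. Kif1b was -0.35 with quantile scaling, where its other probe was chosen. No paired analysis was possible because each group has 1 array, and no replicate could be left out. Dim members lie within a few fold of background and depend on the background correction. The normexp offset of 50 shrinks their ratios by arithmetic, and normexp also starts from another signal. Which of these moved their values was not tested.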
